A study of Mus musculus with 6 samples.

Results

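Pericytes are the cells that sit in the wall of brain capillaries, embedded in the basement membrane that they share with the endothelium. They are recruited and kept there by endothelial PDGF-B acting on the receptor PDGFRβ, they carry an ATP-sensitive potassium channel built from Kir6.1 (*Kcnj8*) and SUR2 (*Abcc9*), and they contain little of the contractile apparatus that marks arterial smooth muscle. Because they adhere tightly to endothelial cells, single-cell suspensions of brain tissue often yield barcodes that hold the RNA of both. The cells described here are the barcodes in which pericyte genes were found with almost no endothelial or contractile RNA. A barcode was taken when it had 250 to 6000 genes and less than 25% mitochondrial UMIs, UMIs of at least 4 of the 7 genes *Kcnj8*, *Vtn*, *Abcc9*, *Higd1b*, *Atp13a5*, *Ndufa4l2* and *Pdgfrb*, of at most 1 of the 4 endothelial genes *Cldn5*, *Flt1*, *Pecam1* and *Cdh5*, and of at most 1 of the 4 contractile genes *Myh11*, *Cnn1*, *Tagln* and *Acta2*. A UMI is a molecular tag that counts one captured RNA molecule. This gave 539 pericytes among 27530 barcodes that passed the quality limits, of 33273 deposited.

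The study tested a dissociation protocol that yields microglia and vascular cells without preselection. Prep 1 used cortex tissue from 3 females of the C57Bl/6J strain at an age of 3 weeks, and prep 3 used hippocampus tissue from 3 females of the same strain at 5 weeks. No animal carried a transgene or was treated. The tissue of each animal was digested with dispase II, papain and DNase I and cleared of myelin on Percoll, the cells of the 3 animals were then combined in 1 suspension, and this was run on a 10x Chromium instrument as 3 technical replicates. With 1 suspension of each kind there is no biological replicate, so no p-value is given: an SD is over 3 technical replicates, and an interval covers counting error only. Brain region, age, preparation day and the gene annotation used for counting all change together between the preparations and cannot be told apart. Within a preparation, 28, 33 and 22 barcodes of the cortex libraries and 330, 313 and 283 of the hippocampus libraries also occurred in another library of the same suspension. Of the pericytes, 0 in the cortex and 2 in the hippocampus carried such a barcode.

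The cortex gave 151 pericytes, 43, 66 and 42 in replicates 1, 2 and 3, which is 1.13% ± 0.269 (SD, n = 3) of the passed barcodes (exact Clopper-Pearson 95% interval 0.961 to 1.33%). The hippocampus gave 388, with 115, 144 and 129 in the 3 libraries, or 2.73% ± 0.304 (SD, n = 3; 2.47 to 3.01%). Every hippocampus library held a larger share than every cortex library. The pericytes were small libraries, with a median of 3899 UMIs and 1896 genes in the cortex and 4669.5 UMIs and 2161.5 genes in the hippocampus, against 5857 and 6775 UMIs over all passed barcodes. Their depth ran from 504 to 27408 UMIs, and they held 612426 UMIs in the cortex and 1855649 in the hippocampus. Precision is therefore lower on the cortex side. Mitochondrial UMIs made up a median of 6.47 and 5.29% of a pericyte, and Scrublet, which scores barcodes against simulated doublets, marked 11 cortex and 39 hippocampus pericytes as possible doublets, which were kept. All 7 pericyte genes were found together in 66.9% of cortex and 75% of hippocampus pericytes. No endothelial gene of the rule was found in 95 and 264 of them, and no contractile gene in 132 and 335.

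Most barcodes with pericyte genes in the cortex were not free of endothelial RNA. UMIs of at least 4 pericyte genes were found in 495 cortex barcodes, of which 30.5% (95% interval 26.5 to 34.8%) were pericytes by the full rule, 56.2% also held at least 2 endothelial genes and 13.3% held at least 2 contractile genes only. Of 709 such barcodes in the hippocampus, 54.7% (51.0 to 58.4%) were pericytes, 39.4% held at least 2 endothelial genes and 5.92% only contractile genes. By library the pericyte share of these barcodes was 27.9, 36.3 and 26.4% in the cortex and 54.0, 56.0 and 54.0% in the hippocampus. The groups did not overlap. The barcodes with at least 2 endothelial and at most 1 contractile gene were much deeper, with a median of 16185 UMIs in the cortex and 13041 in the hippocampus, and those with both kinds of genes had 20474 and 17914. The part of depth in the split was not tested. For every 100 endothelial-like barcodes (at least 3 of the 4 endothelial genes, and at most 1 pericyte and 1 contractile gene) there were 5.28 pericytes in the cortex and 20.0 in the hippocampus, and 17.3 and 36.6 barcodes with at least 4 pericyte genes. Whether tissue, age or digestion set this yield was not tested.

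**Figure D1:**
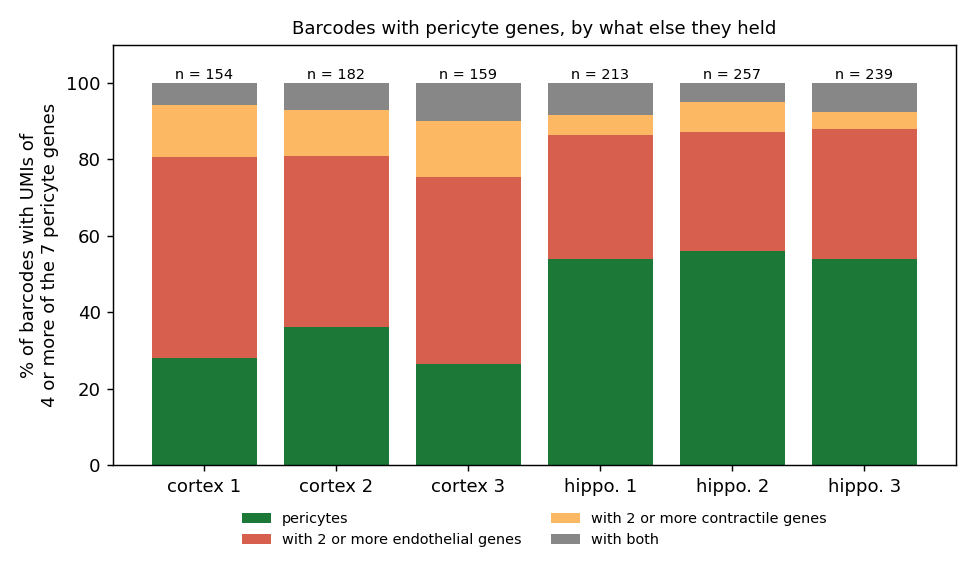
Share, in percent, of the barcodes with UMIs of 4 or more of the 7 pericyte genes that met the full rule (pericytes) or also held endothelial genes, contractile genes or both, for each library, with the number of barcodes above each bar. Pericytes made up 26.4 to 36.3% in the 3 cortex libraries and 54.0 to 56.0% in the 3 hippocampus libraries.

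Barcodes just inside and just outside each limit differed in depth and in the level of the genes concerned. The 43 pericytes with exactly 4 pericyte genes had a median of 1227 UMIs and 9330 CPM of the 7 genes summed, where CPM is UMIs per 1000000 UMIs of the same cells. The 78 barcodes just outside, with 3 pericyte genes, had a median of 7045 UMIs and 4895 CPM. On the endothelial side, 180 pericytes with 1 endothelial gene held 301 CPM of the 4 endothelial genes, and 28 barcodes just outside with 2 held 1525 CPM. On the contractile side, 72 pericytes with 1 contractile gene held 295 CPM of the 4 contractile genes, and 12 barcodes with 2 held 2903 CPM.

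The genes that chose the cells are given as a description. Vitronectin (*Vtn*), a secreted adhesion protein, was the most abundant, with 13690, 12206 and 15919 CPM in the cortex libraries and 21015, 20745 and 22027 CPM in the hippocampus libraries. *Kcnj8*, the channel pore, stood at 1502, 1324 and 1582 CPM and at 1526, 1387 and 1282 CPM. *Abcc9*, its regulatory subunit, stood at 1385, 987 and 1429 CPM and at 1084, 1014 and 982 CPM. The hippocampus libraries were all above the cortex libraries for *Vtn*, while those of *Kcnj8* and *Abcc9* overlapped. *Kcnj8* (chromosome 6: 142564837 to 142571614) and *Abcc9* (142587862 to 142702315) are neighbours on the minus strand of GRCm38, 16247 bases apart. *Atp13a5*, a P5-type ATPase, was at 1474 CPM in the cortex and 1777 CPM in the hippocampus, and *Pdgfrb*, the PDGF-B receptor, at 1964 and 1983 CPM. *Higd1b* and *Ndufa4l2*, homologues of mitochondrial respiratory chain proteins, were at 2544 and 1682 CPM and at 1618 and 1590 CPM.

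Pericyte genes that the rule did not use were then measured, as a description of the cells and not a test of the label. Their list was chosen with earlier results of these data known, and such genes are expressed together with the rule genes. All other barcodes hold many cell types, so the sums below do not set pericytes apart from smooth muscle cells or fibroblasts. Each of the 32 further pericyte genes of a list was measured in the pericytes, with 41269 CPM in sum in the cortex and 39755 CPM in the hippocampus, against 3420 and 2786 CPM in all other barcodes. Abundant among them were *Ptn*, the secreted growth factor pleiotrophin (9325 and 9771 CPM), and *Rgs5*, a regulator of G-protein signalling (9591 and 6131 CPM). *Ptn* was not particular to pericytes, since fibroblast-like barcodes held 7196 and 11816 CPM of it. The other cell classes were taken from the same libraries by UMIs of their own markers: 197 smooth muscle-like, 4797 endothelial-like, 94 fibroblast-like, 10454 microglia-like and 3735 astrocyte-like barcodes. Barcodes with 4 or more of the 7 rule genes were kept out of all of these classes, so their low levels of rule genes are set by the choice of cells.

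RNA of other cells was present and differed between libraries. Of 14 endothelial markers outside the rule, 13 had UMIs in the cortex pericytes and 14 in the hippocampus pericytes, summing to 1875 and 1712 CPM, which is 4.39 and 3.68% of their level in endothelial-like barcodes. The most abundant was *Bsg*, with 550 and 525 CPM. The 4 contractile genes of the rule summed to 52.3 and 45.3 CPM, against 45383 and 39457 CPM in smooth muscle-like barcodes, and *Cnn1* was at 0 in the hippocampus. Of the fibroblast markers 9 of 10 were found, at 1523 and 916 CPM in sum (12.3 and 6.998% of fibroblast-like barcodes), led by *Col1a2* (503 and 386 CPM), with *Dpt* at 0 in both preparations. All 10 microglia markers were found, and their sum was 156, 3179 and 2270 CPM in the cortex libraries and 3826, 3998 and 3263 CPM in the hippocampus libraries (3.51 and 6.603% of microglia-like barcodes when pooled). Cortex replicate 1 stood apart from the other 5. All 10 astrocyte markers were found, led by *Atp1b2* (798 and 670 CPM), with sums of 3294, 2260 and 1773 CPM against 1313, 1132 and 1109 CPM (10.8 and 6.25% of astrocyte-like barcodes when pooled).

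Haemoglobin and other erythroid genes (6 of 6 found, led by *Hbb-bs*) summed to 251 CPM in cortex replicate 1 but to 30628 and 31837 CPM in cortex replicates 2 and 3, and to 42.3, 33.5 and 23.1 CPM in the hippocampus. In cortex replicates 2 and 3 this was more than the 7 rule genes together (21319 and 27494 CPM), and all other barcodes held 28537 CPM in the cortex and 1456 CPM in the hippocampus. The oligodendrocyte lineage list had 7 of 10 markers in the cortex pericytes, with *Sox10*, *Mog* and *Mag* at 0, and 10 in the hippocampus, where replicate 1 held 5634 CPM and replicates 2 and 3 held 230 and 300 CPM. Of the choroid plexus and ependymal list 2 of 10 were found in the cortex (8.16 CPM, *Ttr* at 0) and 10 in the hippocampus, with 431, 201 and 4574 CPM. Neuronal markers summed to 746 and 653 CPM, nearly all of it *Meg3* (722 and 570 CPM), with 5 of 10 found in the cortex, where *Snap25*, *Syt1* and *Tubb3* were at 0, and 9 in the hippocampus. Macrophage and monocyte markers summed to 21.2 and 34.5 CPM, 5 of 10 found on each side. Cells holding at least 3 markers of 1 list were then counted. The neuronal list had 0 such cells in the cortex and 2 in the hippocampus, and the macrophage list 1 and 0. With nearly all of the cortex neuronal sum from *Meg3*, few cells there could reach 3 neuronal markers, so nothing is read from this 0. UMIs of at least 3 markers of 1 of the microglia, astrocyte, oligodendrocyte, neuron, choroid plexus, erythroid or macrophage lists were found in 30 cortex pericytes (19.9%) and 95 hippocampus pericytes (24.5%), most often astrocyte markers (21 and 51 cells) and microglia markers (8 and 44 cells). Without them 121 and 293 pericytes remained, and many of the comparisons between the preparations below are given with and without these cells.

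Outside the rule, genes were ranked by how far they were higher in pericytes than in all other barcodes. The fold is the smaller of both preparations, with 5 CPM added to each side, among 2796 genes found in at least 20% of the pericytes of both. At least 10-fold were 111 genes outside the rule, and at least 5-fold 224. The receptors among the 20 leading genes were *P2ry14*, the UDP-glucose receptor (41.4-fold), *Pth1r*, the parathyroid hormone receptor (31.8-fold), *S1pr3*, a sphingosine-1-phosphate receptor (29.7-fold), *Notch3* (26.3-fold) and *Gper1*, a G-protein-coupled oestrogen receptor (24.6-fold). The enzymes were *Art3*, of the ADP-ribosyltransferase family (41.0-fold), *Sod3*, extracellular superoxide dismutase (32.2-fold), and *Enpep*, a peptidase that cleaves angiotensin peptides (26.6-fold). *Slc6a20a*, an amino acid transporter of the SLC6 family (37.8-fold), *Cox4i2*, an isoform of cytochrome c oxidase subunit IV (37.5-fold), *Ifitm1* (36.1-fold), the surface proteins *Cd248* (35.0-fold) and *Cspg4*, also known as NG2 (27.3-fold), the protocadherin *Pcdh18* (27.8-fold), *Rgs4* (30.3-fold), the cytokine *Il34* (24.96-fold), the GTPase *Rem1* (24.4-fold) and the transcription factors *Zic1* (24.6-fold) and *Tbx2* (24.6-fold) also belonged to them. Since the cells were chosen by genes that are expressed together with these, the folds are a description.

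**Figure D2:**
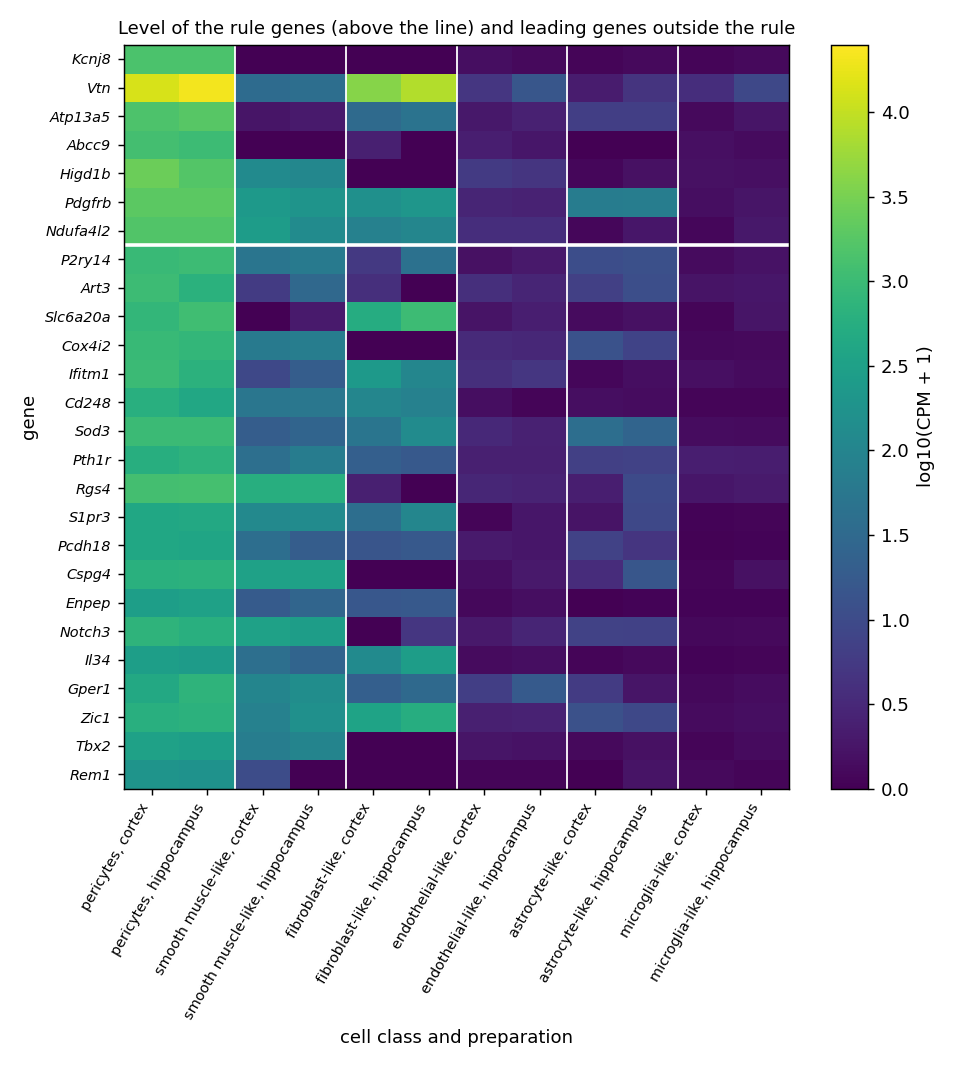
Level of the 7 rule genes (above the white line) and of 19 leading genes outside the rule (below it) in 6 cell classes of each preparation, as log10 of CPM + 1. The pericyte columns are the brightest for nearly every gene, while *Vtn* and *Slc6a20a* are also bright in fibroblast-like barcodes and *Rgs4*, *Cspg4* and *Notch3* in smooth muscle-like barcodes.

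The leading genes differed in how sharply they separated pericytes from their neighbours in the vessel wall. *P2ry14* was at 971, 955 and 899 CPM in the cortex and 1025, 1083 and 1050 CPM in the hippocampus pericytes, against 49.5 and 60.3 CPM in smooth muscle-like barcodes. It was found in 81.5% of cortex and 85.6% of hippocampus pericytes. When every cell was thinned to 1000 UMIs, leaving out 11 and 21 shallower pericytes, the shares were 62.9 and 59.1%, against 0.0191 and 0.0389% of microglia-like barcodes, which should lack it. *Art3* was at 1058 and 633 CPM in pericytes and 4.71 and 29.6 CPM in smooth muscle-like barcodes. *Rgs4* (574 and 588 CPM), *Cspg4* (327 and 325 CPM) and *Notch3* (327 and 275 CPM) kept about the same order of level in smooth muscle-like barcodes as in pericytes, where they stood at 1195 and 1260, 629 and 667, and 728 and 602 CPM. *Slc6a20a* was near 0 in smooth muscle-like barcodes (0 and 1.10 CPM) but at 538 and 1048 CPM in fibroblast-like barcodes, against 825 and 1140 CPM in pericytes.

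Most genes of a list of 33 contractile and other smooth muscle genes outside the rule were lower in pericytes than in smooth muscle-like barcodes. Of the 33 genes 25 were lower in the pericytes of both preparations, 11 of them to under 10% of the smooth muscle-like level, and 6 were higher in both (*Tpm4*, *Cald1*, *Myl12a*, *Myl12b*, *Rgs5* and *Rgs4*). *Rgs5* and *Rgs4* are regulators of G-protein signalling and not contractile proteins. *Lmod1*, the actin-nucleating protein leiomodin, was at 18.0 and 8.62 CPM in the cortex and hippocampus pericytes against 728 and 780 CPM, and *Actg2*, an enteric smooth muscle actin, was at 0 in both against 370 and 112 CPM. *Cald1*, the actin-binding protein caldesmon, was at 3213 and 3582 CPM in pericytes and 2495 and 2550 CPM in smooth muscle-like barcodes. *Myl9*, the regulatory myosin light chain of smooth muscle, was at 1230 and 1237 CPM against 6391 and 6601 CPM. The tropomyosin *Tpm2* was at 158 and 95.4 CPM against 8258 and 6770 CPM, and desmin (*Des*) at 126 and 134 CPM against 832 and 959 CPM. The choice of cells by low contractile UMIs bears on these levels.

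The respiratory chain isoforms were measured next to their common counterparts. *Cox4i2* stood at 865, 854 and 1059 CPM in the cortex and 820, 855 and 778 CPM in the hippocampus, about the level of the common isoform *Cox4i1*, which was at 871, 825 and 829 CPM and at 741, 691 and 722 CPM. *Cox4i2* was at 2.29 and 2.10 CPM in endothelial-like barcodes, where *Cox4i1* was at 783 and 664 CPM. *Ndufa4l2* was at 1618 and 1590 CPM, and its counterpart *Ndufa4* at 98.0 and 96.5 CPM in pericytes against 753 and 672 CPM in endothelial-like barcodes. These counts are of 3′ tags and are not divided by transcript length.

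Among 38 receptors and second-messenger enzymes for vasoactive signals, 19 passed the minimum of 30 UMIs over all pericytes. The nitric oxide receptor, soluble guanylate cyclase, was represented by its β1 subunit *Gucy1b1* (781 and 765 CPM) and α1 subunit *Gucy1a1* (447 and 468 CPM). *Tbxa2r*, the thromboxane receptor, was at 361 and 378 CPM, and *Pde5a*, which degrades cyclic GMP, at 229 and 231 CPM. *Ednra*, the endothelin A receptor, was at 313, 188 and 306 CPM in the cortex and 205, 167 and 219 CPM in the hippocampus, and the adenosine receptor *Adora2a* at 121 and 166 CPM. The angiotensin II receptor *Agtr1a* had a UMI in 0 of 151 cortex pericytes, which by the limit of 3 counts of the total allows up to 1.99% of cells with a UMI (2.41% by the exact Clopper-Pearson interval), and in 0.258% of hippocampus pericytes. At this depth cells without a UMI may still express the gene. The levels of these 6 genes from *Gucy1b1* to *Adora2a* differed less than 2-fold between the preparations.

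Pericytes of one library also differed from each other. After thinning to 1000 UMIs (140 cortex and 367 hippocampus pericytes), the ratio of variance to mean in the library where it was lowest had a median of 0.897 over 3494 genes found in at least 5% of the cells, and it was above 2 in all 6 libraries for 21 genes. Among the 12 highest were the nuclear RNA *Malat1* (21.3), *Gm42418* (10.6), *Apoe* (8.07), *Cst3* (6.62), *Vtn* (4.37), *mt-Atp6* (4.08), *Mgp* (3.91), *mt-Co3* (3.72), *Ptn* (3.12), *Rgs5* (2.94) and *Slc1a2* (2.94). Without the cells that held other cells' markers, the ratio ranged over the libraries from 0.844 to 4.75 for *Apoe*, from 0.875 to 1.97 for *Cst3* and from 0.969 to 2 for *Slc1a2*, genes abundant in glial cells, the last of which helped to choose the cells left out. The lowest ratio was 3.34 for *Mgp*, matrix Gla protein, an inhibitor of calcification. Of those 384 cells 43.5% had no *Mgp* UMI among 1000, the median cell had 1 and the highest had 28. *Vtn* is a gene of the rule, which bears on its spread.

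Cortex and hippocampus pericytes were then compared gene by gene. The question was where the profile of these cells differed between the preparations by more than the spread of the libraries. Of 27514 gene identifiers listed in both annotations, 8596 had at least 30 UMIs over all pericytes. A gene was called when its summed CPM differed at least 2-fold, the 95% Poisson interval of the log2 ratio (hippocampus over cortex) held no 0, and the 3 libraries of one preparation were all above the 3 of the other. This is a rule of size, not a test. It called 464 genes (5.40% of those measured), 295 higher in the hippocampus (3.43%) and 169 higher in the cortex (1.97%). The median log2 ratio of all 8596 genes was 0.08. The libraries did not overlap for 13.1% of genes in the direction of the hippocampus and 8.15% in that of the cortex.

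Of the 32 pericyte genes outside the rule 0 were called in either direction over all pericytes, and their median log2 ratio was 0.10. The ratios of rule genes, *Vtn* and *Higd1b* below, only describe the cells chosen by them. *Vtn* (log2 ratio 0.64, 95% interval 0.61 to 0.68), *Gper1* (0.72, 0.53 to 0.91) and *Slc6a20a* (0.47, 0.33 to 0.61) were among those higher in the hippocampus, and *Art3* (-0.74, -0.88 to -0.60), *Mcam*, a surface adhesion molecule (-0.71, -0.92 to -0.50), *Rgs5* (-0.65, -0.69 to -0.60) and *Higd1b* (-0.60, -0.68 to -0.51) among those higher in the cortex. In the cells without other cells' markers 1 of these genes was called, the GABA transporter *Slc6a13*, whose ratio was 0.69 over all pericytes (178 and 288 CPM) and 2.47 in those cells. It was more abundant in fibroblast-like barcodes (832 and 1783 CPM), and the median ratio of the 8 measured fibroblast markers, which were not used to leave out cells, went from -0.66 to 2.89. The part of fibroblast RNA was not tested. *Rgs5* was at 10881, 8799 and 9515 CPM in the cortex libraries and 6204, 6004 and 6197 CPM in the hippocampus libraries, which did not overlap. *Gper1* was at 419, 373 and 593 CPM and at 776, 680 and 728 CPM, again without overlap.

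The genes with the largest ratios included markers of other cells and genes that also differed over 2-fold in microglia-like, endothelial-like and astrocyte-like barcodes. By the bound nearest to no change, the 12 leading genes higher in the hippocampus included *Ttr*, *Mal*, *Igf2*, *Tonsl*, *Mag*, *Cldn11*, *Gm45837*, *Srp54c*, *Pelo*, *Mog* and *Mobp*. *Ttr*, the choroid plexus product transthyretin, was at 0 in the 3 cortex libraries and at 242, 164 and 4128 CPM in the hippocampus, where 1 cell held 53.7% of its UMIs. *Mal*, *Mag*, *Cldn11*, *Mog* and *Mobp* are genes of myelinating cells, and 51.6, 52.4, 54.5, 64.9 and 50.8% of their UMIs came from 1 cell each. Without the cells that held other cells' markers, *Cldn11*, *Mog* and *Mobp* were no longer called, though *Cldn11* and *Mog* are markers that helped to choose those cells. In the cortex the 12 were the haemoglobin genes *Hbb-bs*, *Hba-a2*, *Hba-a1* and *Hbb-bt*, then *Gnb5*, *Kctd17*, *Btbd17*, *Dclk1*, *Dgkh*, *Acsl6*, *Gm10076* and *Gpr37l1*. *Hbb-bs* was at 162, 19240 and 18317 CPM in the cortex libraries and 22.0, 15.2 and 6.59 CPM in the hippocampus, with 55.6% of its cortex UMIs in 1 cell.

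Some called genes differed alike in other classes. The same 2-fold difference in the same direction was present in microglia-like, endothelial-like and astrocyte-like barcodes together for 49 of the 295 genes higher in the hippocampus and 21 of the 169 higher in the cortex, and in none of these classes for 171 (58.0%) and 107 (63.3%). Those 171 and 107 include 7 and 9 genes with too few UMIs for a ratio in any of the 3 classes and 12 and 11 with a ratio in only 1 or 2 of them. Among the 265 and 143 called genes with a ratio in all 3 classes the shares were 57.4 and 60.8%, and smooth muscle-like and fibroblast-like barcodes were not part of this count. *Gnb5*, a G-protein subunit named above, had a ratio of -5.46 in pericytes and of -4.89, -4.82 and -4.45 in these classes. *Pgk1*, an enzyme of glycolysis, fell from 62.0 to 9.70 CPM in pericytes (log2 ratio -2.68) and had ratios of -3.36, -3.09 and -3.47 in the 3 other classes. Both annotations were compared for genes whose exons overlap, on the same strand, a gene that only the cortex list names. Of all genes measured 0.826% did, of those higher in the hippocampus 6.10% (18 genes) and of those higher in the cortex 0.592% (1 gene). *Igf2*, insulin-like growth factor 2, was at 16.7, 10.8 and 12.8 CPM in the cortex and 524, 750 and 620 CPM in the hippocampus pericytes. Its exons overlap those of *Gm49394*, which is named only in the cortex list and had 0 UMIs in the pericytes, and fibroblast-like barcodes went from 56.3 to 1912 CPM. *Pelo*, which rescues stalled ribosomes, and *Itga1*, the α1 integrin subunit that binds collagen, both overlap *Gm49395* of the cortex list, also with 0 UMIs. *Pelo* was at 4.90 and 179 CPM and *Itga1* at 1705 and 469 CPM. Their summed level was 1710 CPM in the cortex and 649 CPM in the hippocampus (log2 ratio -1.40, 95% interval -1.52 to -1.28). The part of the annotation in these ratios was not tested.

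**Figure D3:**
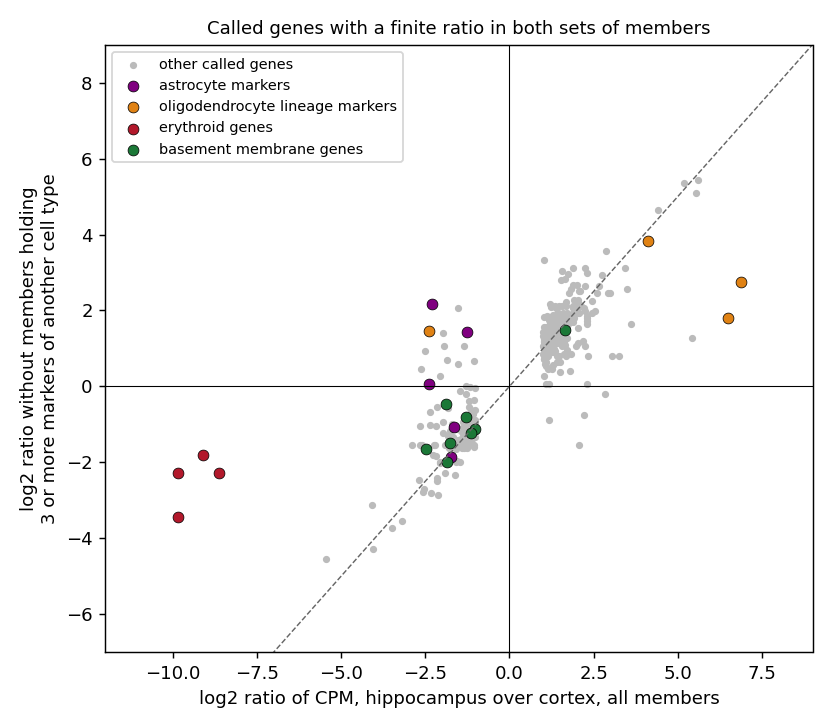
Log2 ratio (hippocampus over cortex) of the 396 of 464 called genes with a finite ratio in both sets of cells, over all pericytes (x axis) and without those that held UMIs of 3 or more markers of another cell type (y axis); the dashed line marks equal values. Of the astrocyte markers, which helped to choose the cells left out, *Gja1*, *Slc1a3* and *Cldn10* cross 0 while *Slc1a2* and *Aldoc* stay below it; erythroid genes and *Cldn11* lie nearer to 0 on the y axis, and the called basement membrane genes stay on their side.

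Leaving out the cells with other markers changed many calls. Of the 295 genes higher in the hippocampus 141 were still called over the remaining 121 and 293 cells, and of the 169 higher in the cortex 84. Among the astrocyte markers 7 of 9 measured were called higher in the cortex over all pericytes and 1 of these, the glutamate transporter *Slc1a2*, in the remaining cells, but this list helped to choose the cells left out, so nothing is read from that loss. Signalling genes that are abundant in astrocyte-like barcodes, which were not used in that choice, had few UMIs left. *Vegfa*, the endothelial growth factor, had a log2 ratio of -1.97 over all pericytes, with 55.1% of its cortex UMIs in 1 cell, and of 1.41 (95% interval -0.32 to 3.79) in the remaining cells, from 3 and 23 UMIs. *S1pr1*, a sphingosine-1-phosphate receptor, went from -2.52 to 0.93 (-1.27 to 4.14), from 2 and 11 UMIs. *Id2* and *Id4*, inhibitors of basic helix-loop-helix factors, went from -1.86 to 0.69 (-1.15 to 3.13) and from -1.95 to 1.05 (-1.12 to 4.25). The intervals of these 4 genes hold 0, so no direction was detectable at this depth in the remaining cells. For *Apoe*, the lipid carrier, the ratio was -1.30 over all pericytes and -0.00 (-0.23 to 0.24) in the remaining cells.

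The type IV collagen genes *Col4a1* and *Col4a2* were higher in the cortex pericytes with and without those cells. *Col4a1* and *Col4a2* encode the chains of the collagen network under every capillary. *Col4a1* was at 3059, 2521 and 2883 CPM in the cortex libraries and at 1314, 1442 and 1366 CPM in the hippocampus libraries. *Col4a2* was at 1747, 1287 and 1295 CPM and at 629, 666 and 646 CPM. For both genes every cortex library was above every hippocampus library. The log2 ratio was -1.01 (95% interval -1.10 to -0.92) for *Col4a1* and -1.14 (-1.26 to -1.01) for *Col4a2*, and -1.13 and -1.23 without the cells that held other markers. No cell held more than 3.89% of the cortex UMIs of *Col4a1* or 4.93% of those of *Col4a2*. Smooth muscle-like barcodes had ratios of -0.97 and -0.78 and endothelial-like barcodes of -0.48 and -0.55, while fibroblast-like barcodes had 0.86 and 0.71. The ratio of *Col4a1* lay near the 2-fold limit, and the call was lost without cortex replicate 1 (-0.95), cortex replicate 3 (-0.99) or hippocampus replicate 1 (-0.98) and on cells thinned to 1000 UMIs (-0.85). That of *Col4a2* was lost without cortex replicate 1 (-0.99). Other measures of the RNA differed between the same libraries. *Malat1* took 6.91, 4.75 and 4.56% of the pericytes' UMIs in the cortex and 8.45, 9.08 and 9.42% in the hippocampus, mitochondrial genes 7.07, 6.87 and 6.42% against 5.66, 5.56 and 5.66%, and ribosomal protein genes 5.42, 5.63 and 5.29% against 4.87, 4.91 and 5.00%. With mitochondrial and ribosomal genes left out of the total the ratios were -1.04 and -1.16. The part of *Malat1* was not tested.

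The pair is transcribed head to head from chromosome 8, *Col4a1* on the minus strand (11198423 to 11312826) and *Col4a2* on the plus strand (11312805 to 11449287), so that the gene bodies overlap by 22 bases at their 5′ ends. Their promoters are shown because both genes moved together. The windows of 250 bases before to 50 after each RefSeq start (GRCm38.p6) are chr8:11312777-11313076 for *Col4a1* and chr8:11312555-11312854 for *Col4a2*, each written 5′ to 3′ on the strand of its gene. Capitals mark the 78 bases that both windows share, which read as the reverse complement of each other.
Col4a1: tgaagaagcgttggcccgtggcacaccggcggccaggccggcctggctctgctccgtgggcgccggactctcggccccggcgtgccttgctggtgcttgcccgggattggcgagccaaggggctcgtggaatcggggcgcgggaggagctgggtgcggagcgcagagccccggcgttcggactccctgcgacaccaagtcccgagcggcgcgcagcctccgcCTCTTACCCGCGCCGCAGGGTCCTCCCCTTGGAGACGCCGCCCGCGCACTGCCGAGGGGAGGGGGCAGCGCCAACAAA
Col4a2: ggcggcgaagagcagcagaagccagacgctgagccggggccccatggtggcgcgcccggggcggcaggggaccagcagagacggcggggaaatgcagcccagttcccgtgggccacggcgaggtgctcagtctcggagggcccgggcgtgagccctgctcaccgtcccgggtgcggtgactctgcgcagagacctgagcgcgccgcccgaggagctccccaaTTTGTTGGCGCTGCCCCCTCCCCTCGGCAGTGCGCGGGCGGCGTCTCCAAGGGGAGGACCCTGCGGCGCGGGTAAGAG
CCAAT, searched on both strands (ATTGG on the other), occurred 1 time in each window, and so in 37.4% of the 32851 mouse promoters of the same length. GGGCGG, read as CCGCCC from the opposite strand, occurred 1 time in the *Col4a1* window and 3 times in the *Col4a2* window, against 35.7% of promoters with at least 1. A match is a description of the letters and not a binding site.

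Most of the basement membrane list had ratios of the same sign. Of its 40 measured genes 32 (80.0%) had a ratio below 0 and 22 (55.0%) an interval wholly below 0, against 43.3 and 8.25% of all genes measured, and the median log2 ratio was -0.40 against 0.08. Called higher in the cortex were 7, *Col4a1*, *Col4a2*, *Col18a1*, *Timp3*, *Itga1*, *Loxl2* and *Htra1*, which is 7 of 40 beside 1.97% of all genes, and 5 of them (not *Timp3* and *Htra1*) in the remaining cells, where 1.69% of all genes were called. Among them *Itga1*, which overlaps a gene of the cortex list only, was not particular to pericytes. Its log2 ratio was -1.53 in endothelial-like, -2.25 in smooth muscle-like and -1.22 in fibroblast-like barcodes. Fibroblast markers summed to 1523 CPM in the cortex and 916 CPM in the hippocampus pericytes over all cells (log2 ratio -0.73, 95% interval -0.85 to -0.62), and their part in these ratios was not tested. The collagen chain gene *Col4a3* was called higher in the hippocampus over all pericytes (16.3 and 51.7 CPM) and not in the remaining cells. Of the other chains *Col4a4* was at 14.7 and 26.9 CPM (0.87) and *Col4a5* at 57.1 and 62.0 CPM (0.12), the latter called higher in the hippocampus in the remaining cells (1.13). Laminin γ1 (*Lamc1*) was at 1105, 1092 and 1390 CPM and at 736, 843 and 702 CPM (log2 ratio -0.62, -0.75 to -0.49). Nidogen 1 (*Nid1*), which links laminin to collagen IV, was at 1100, 864 and 1014 CPM and at 648, 681 and 618 CPM (-0.58, -0.72 to -0.44). *Mgp* was at 4064, 3078 and 3284 CPM and at 1715, 1661 and 1920 CPM (-0.96, -1.04 to -0.88). Perlecan (*Hspg2*) was at 152 and 79.8 CPM and laminin β1 (*Lamb1*) at 271 and 177 CPM. Fibroblast-like barcodes held 6928 and 2561 CPM of *Mgp*, more than pericytes. Over all pericytes these 5 genes stayed under the 2-fold limit, though their libraries did not overlap, and *Mgp* passed it in the remaining cells (-1.05). The matrix genes *Ecm2* (327 and 506 CPM, 0.63, 0.41 to 0.86) and *Bgn*, the proteoglycan biglycan (519 and 620 CPM, 0.26, 0.07 to 0.44), went the other way. *Loxl2*, a lysyl oxidase that crosslinks collagen IV, fell from 75.1 to 22.1 CPM (-1.77). On cells thinned to 1000 UMIs its ratio was -0.65, under the 2-fold limit. *Col18a1*, the source of endostatin, fell from 53.9 to 9.70 CPM, although 1 cell held 48.5% of its cortex UMIs.

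**Figure D4:**
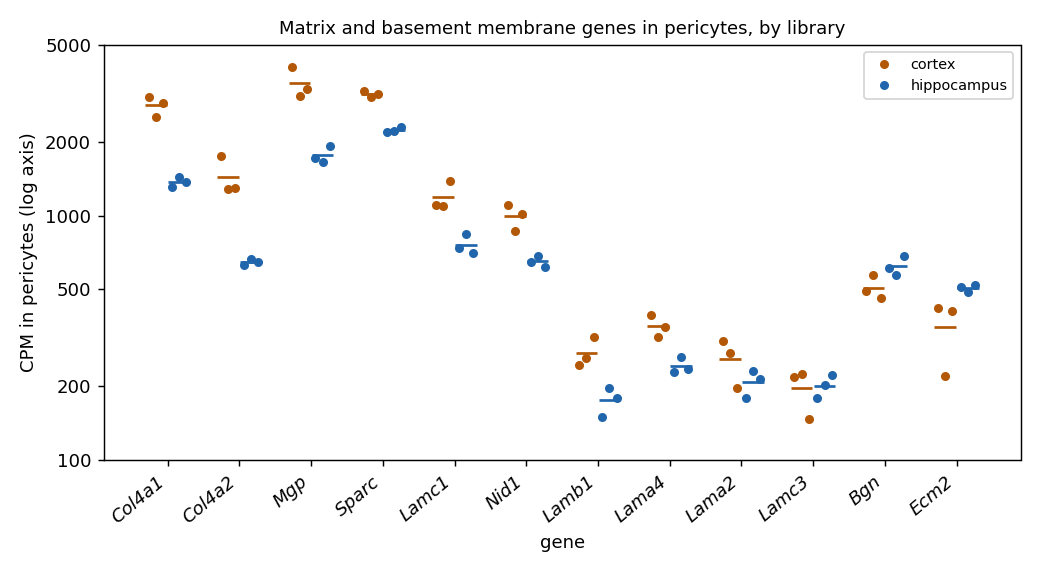
CPM in pericytes (log axis) of 12 matrix and basement membrane genes, 1 point for each of the 3 cortex and 3 hippocampus libraries, with a bar at the mean of the 3. The libraries separate for *Col4a1*, *Col4a2*, *Mgp*, *Sparc*, *Lamc1*, *Nid1*, *Lamb1* and *Lama4* with the cortex above, and overlap for *Lamc3*.

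Called genes that were themselves enriched in pericytes were the next group. Of 650 measured genes at least 3-fold over all other barcodes, 22 (3.38%) were called higher in the hippocampus and 30 (4.62%) higher in the cortex, close to the background in the hippocampus direction and above it in that of the cortex. Of these, 8 and 17 were also called in the remaining cells, had no 2-fold difference of the same sign measured in microglia-like, endothelial-like or astrocyte-like barcodes, and had no single cell with over 50% of the UMIs. This set was chosen after the values were seen, and 11 of the 25 genes had too few UMIs for a ratio in any of those 3 classes. Smooth muscle-like barcodes were not part of the choice. There 9 of the 17 cortex genes had at least 30 UMIs and 7 of these had a ratio of the same sign, 5 with an interval without 0. Over 2-fold were 2 of them, *Emid1* (-1.42) and *Plac9b* (-1.33). Of the 8 hippocampus genes 3 had at least 30 UMIs and 2 had the same sign, 1 with an interval without 0, *Gm19705* (1.07), which was over 2-fold. In fibroblast-like barcodes 7 of the 17 cortex genes had at least 30 UMIs. Of these 2 went the same way as in pericytes, both over 2-fold, *Tnxb* (-2.35) and *Pde1a* (-1.28). The rest had ratios of the other sign, but the intervals of *Col26a1* (0.15), *Loxl2* (0.69) and *C1qtnf1* (0.33) held 0, so their direction was not resolved. Of the 8 hippocampus genes 1 had at least 30 UMIs there, *Rhod* (1.11), which went the same way over 2-fold. Under at least 1 setting 11 of the 25 fell under the 2-fold limit. In the cortex group these were *Tnxb*, *Col4a1*, *Pde1a*, *Hspb2*, *Col4a2*, *Loxl2* and *Emid1*. Besides the collagens and *Loxl2*, the cortex group held *Cysltr2*, a cysteinyl leukotriene receptor, *Adcyap1r1*, the PACAP receptor, *Pde1a*, a calcium-dependent phosphodiesterase, the matrix genes *Tnxb*, *Col26a1* and *Emid1*, the small heat shock protein gene *Hspb2*, and *Mnd1*, *Plac9b*, *C1qtnf1*, *Nt5dc2*, *Klhl29*, *Epb41l1* and *Impa2*. *Cysltr2* was at 117, 127 and 108 CPM and at 35.5, 48.7 and 41.2 CPM (log2 ratio -1.50, 95% interval -1.98 to -1.02). *Adcyap1r1* was at 100.5, 119 and 102 CPM and at 32.1, 41.1 and 51.1 CPM (-1.40, -1.89 to -0.90). *Mnd1*, a meiotic recombination gene, was at 268, 148 and 210.5 CPM and at 59.2, 100.4 and 57.7 CPM (-1.44, -1.81 to -1.08). In all 3 genes the preparations did not overlap.

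The hippocampus group was *Tbx3os1*, *Lin7a*, *Sebox*, *Saa1*, *Zdhhc1*, *Rhod*, *Gm9780* and *Gm19705*. *Tbx3os1*, the RNA opposite the T-box gene *Tbx3*, was at 162, 134 and 172 CPM in the cortex and 364, 398 and 382 CPM in the hippocampus (1.33, 1.02 to 1.66). *Tbx3* itself, which overlaps it on the other strand, was at 109 and 172 CPM (0.66, 0.27 to 1.06) and was not called. *Lin7a*, a scaffold protein of cell junctions, was at 78.2, 54.2 and 108 CPM and at 145, 184 and 155 CPM (1.11, 0.66 to 1.59). *Sebox*, a homeobox gene, was at 31.02 and 68.4 CPM and lies 1122 bases downstream of *Vtn* on the same strand. *Rhod*, a small GTPase, was at 5.58, 21.7 and 31.9 CPM and at 60.9, 60.8 and 61.0 CPM (1.64, 0.77 to 2.63). *Saa1* (21.2 and 43.7 CPM, log2 ratio 1.04) reversed to -0.88 on cells thinned to 1000 UMIs. It shares 46.0% of its 31-base words with *Saa2*, and *Plac9b* (34.3 and 13.5 CPM) shares 67.0% with *Gm9780* (6.53 and 24.8 CPM), which moved in opposite directions. The assignment of reads among such copies is uncertain. *Zdhhc1*, of the palmitoyltransferase family, was at 57.1 and 127 CPM. Ratios fell under the 2-fold limit for *Lin7a* without cortex replicate 2 (0.81), *Sebox* without cortex replicate 1 (0.98) and *Zdhhc1* without cortex replicate 3 (0.95).

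**Figure D5:**
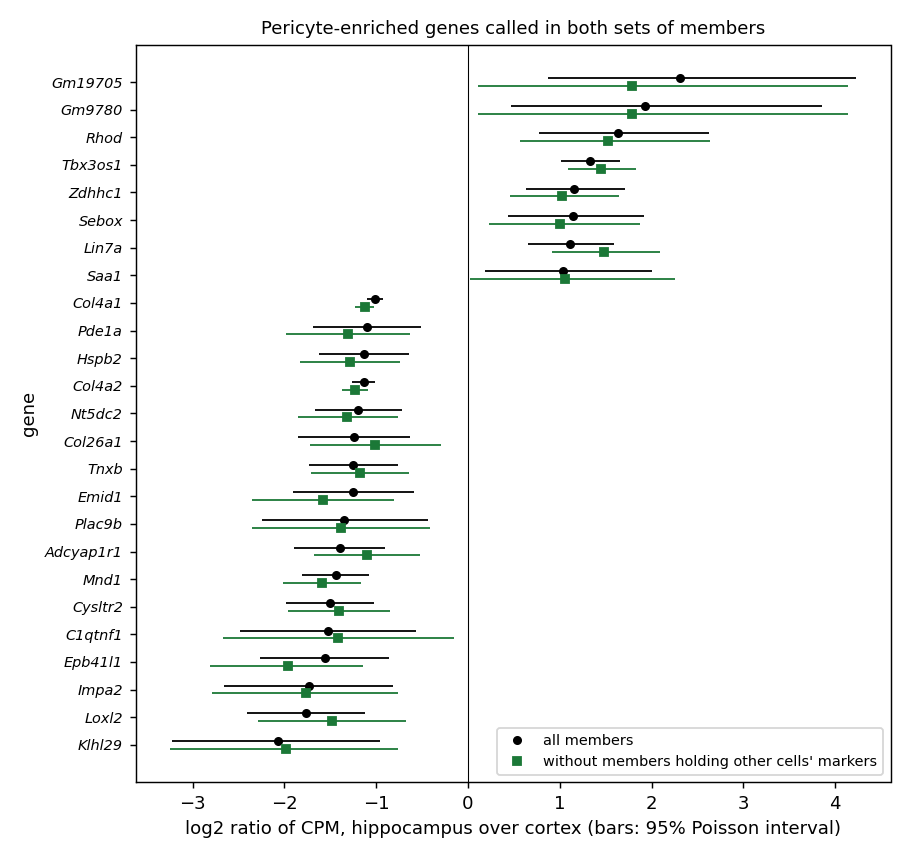
Log2 ratio of CPM (hippocampus over cortex) with its 95% Poisson interval for the 25 pericyte-enriched genes called in both sets of cells, over all pericytes (black circles) and without those that held other cells' markers (green squares). The 17 genes below 0 include *Col4a1* and *Col4a2*, which have the narrowest intervals, and the 8 above 0 include *Tbx3os1*.

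The other lists of genes are given by their counts, beside a background of 3.43% of all genes called higher in the hippocampus and 1.97% in the cortex, so that 1 or 2 calls in a short list are little to read from. Of 19 vasoactive receptors and enzymes measured 0 were called higher in the hippocampus and 2 in the cortex, *S1pr1* and *Ednrb*, and neither of them in the remaining cells. Of 19 ion channels 2 were called higher in the hippocampus, *P2rx4* (16.3 and 42.0 CPM) and *Trpm4* (4.90 and 22.1 CPM), and 1 in the cortex, *Kcnk3* (55.5 and 25.9 CPM), and none of these 3 in the remaining cells. *Cacna1c*, the pore of the L-type calcium channel, was at 140, 94.0 and 153 CPM and at 72.7, 71.5 and 62.6 CPM (-0.83, -1.25 to -0.40), and it was called in the remaining cells (-1.11). Among 28 transcription factors 0 were called higher in the hippocampus and 1 in the cortex, the homeobox gene *Prrx1* (126 and 59.8 CPM, not called in the remaining cells), among 11 genes of the Notch pathway 0, among 4 of the PDGF system 0 and among 13 respiratory isoforms 0. *Notch3* and its target *Heyl* were at 728 and 602 CPM and at 323 and 412 CPM. Of 26 contractile and other smooth muscle genes outside the rule 1 was called higher in the cortex, vimentin (*Vim*), an intermediate filament protein. It was at 307, 206 and 198 CPM against 105, 119 and 120 CPM (-1.02, -1.34 to -0.71). *Vim* was called in the remaining cells too, but fell under the 2-fold limit without cortex replicate 1 (-0.82) or hippocampus replicate 1 (-0.97). Of 29 transporters 1 was called higher in the hippocampus over all pericytes, the taurine transporter *Slc6a6* (11.4 and 29.6 CPM), and 2 in the cortex, *Slc1a3* and *Slco1c1*. In the remaining cells, where 3.20% of all genes were called higher in the hippocampus, 4 of the 29 were (*Slc6a6*, *Slc6a13*, *Slc1a3* and *Abca8a*). There 1 was called higher in the cortex, the amino acid transporter *Slc38a2*. *Slc1a3* is an astrocyte marker that helped to choose the cells left out, so nothing is read from its call. *Slc6a13* was more abundant in fibroblast-like barcodes (832 and 1783 CPM), and the fibroblast markers had a median ratio of 2.89 in the remaining cells. Of 20 immediate early genes, which respond within minutes to stimulation and to tissue handling, 2 were called higher in the hippocampus, *Fos* (72.6, 141 and 0 CPM against 205, 193 and 236 CPM) and *Junb* (123, 228 and 82.9 CPM against 379, 388 and 257 CPM). Neither was called in the remaining cells, where their ratios were 0.98 and 0.96 and 1 gene was called higher in the cortex, the phosphatase gene *Dusp1* (163 and 119 CPM, log2 ratio -0.46 over all pericytes and -1.08 in those cells). Of 21 interferon-stimulated and MHC class I genes 0 were called over all pericytes and 2 in the remaining cells, *H2-D1*, an MHC class I heavy chain (log2 ratio 0.80 over all and 1.11 in those cells), and *Oasl2* (0.92 and 1.35). Of 13 chemokine and cytokine genes 0 were called in either set of cells.

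Growth factor, metabolic and stress lists held few calls as well. Of 24 genes of TGF-beta and BMP signalling 0 were called higher in the hippocampus and 2 in the cortex, *Id2* and *Id4*. Neither was called in the remaining cells, where *Acvr1*, an activin receptor, was called higher in the hippocampus and the ligand gene *Tgfb2* in the cortex (-1.06). Of 7 angiopoietin and VEGF genes 1 was called in the cortex, *Vegfa*, and in the remaining cells it was *Angpt2* (-1.06) in its place. Of 23 genes of glycolysis and the hypoxia response 1 was called higher in the hippocampus, *Bnip3* (11.4 and 28.0 CPM), and 3 in the cortex, *Pgk1*, *Aldoc* (253 and 80.8 CPM) and again *Vegfa*. In the remaining cells *Pgk1* was still called and *Pdk1* was called higher in the hippocampus. The imprinted growth genes gave 2 calls of 10, both higher in the hippocampus in both sets of cells, *Igf2* and *Nnat* (9.80 and 65.7 CPM). *Igf2* was also the 1 call among 8 genes of the IGF system. *Nnat* was also higher in the hippocampus in smooth muscle-like (0 and 295 CPM), microglia-like (0.933 and 11.7 CPM), endothelial-like (7.16 and 33.3 CPM) and astrocyte-like barcodes (32.8 and 1083 CPM). In fibroblast-like barcodes it was lower (601 and 297 CPM). *Igf2* was at 0.133 and 1.85 CPM in microglia-like and 0 and 5.68 CPM in endothelial-like barcodes. Single calls were made in 4 short lists and were lost in the remaining cells. They were *Clu* of 5 complement genes (431 and 149 CPM) and *Per1* of 9 glucocorticoid response genes (57.1 and 28.0 CPM), both higher in the cortex, and *Hspa1a* of 16 heat shock genes (168 and 342 CPM) and *Stmn1* of 11 genes of dividing cells (27.8 and 129 CPM), both higher in the hippocampus. Of 19 metallothionein and antioxidant genes 0 were called over all pericytes. In the remaining cells *Mt2*, which is in this list and in that of the glucocorticoid response, was called higher in the hippocampus (2.86). The median log2 ratios of these 10 lists lay between -0.65 for complement and 0.06 for heat shock, against 0.08 over all genes.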

How the data were processed

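The authors aligned the reads to mm10 and counted UMIs per gene with Cell Ranger 5.0.1, per the labels and methods, and deposited 1 filtered matrix of raw counts for each of 6 libraries. The matrix headers name versions 3.0.1 for the cortex and 3.1.0 for the hippocampus, and the gene lists differ (27514 identifiers shared, 3539 only in the cortex and 484 only in the hippocampus). Total counts per library ranged from 39662203 to 50024850, of which pericytes contributed 612426 UMIs in the cortex and 1855649 in the hippocampus. Members and gene lists were chosen with earlier results of these data known.

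UMIs were summed over the pericytes of a library and scaled to CPM by all their UMIs. Ratios are of summed UMIs, with an exact conditional Poisson 95% interval; shares have exact Clopper-Pearson intervals. All cover counting error only. Doublets were scored with Scrublet (0.8% per 1000 barcodes) and kept in the main values. The 12 called genes with the bound farthest from 0 in each direction, the 20 leading genes and the 12 most variable genes were named, with members of fixed lists. The ratio code was tested on simulated data. Overlapping exons were read from GENCODE M21 (GRCm38). The software was Python 3.11.15 with scanpy 1.11.5, pandas 2.3.3, matplotlib 3.10.9, scipy 1.17.1 and numpy 2.4.6, and edgeR 4.0.16 in R 4.3.3 for an alternative scaling. Alternatives changed the limits on cells and genes, the scaling, the depth and the libraries. Prep 2 was not analysed here, and a few genes that these rules name are not reported here.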

Additional observations from a re-analysis of the deposited data

Results flagged for a closer look

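In several genes called higher in the cortex pericytes, the 3 libraries of each preparation also separated in another class, but in the opposite direction. *Epb41l1*, a membrane skeleton protein, had a log2 ratio of -1.56 in pericytes, 1.39 (95% interval 0.43 to 2.39) in endothelial-like, 1.28 (0.76 to 1.82) in microglia-like and 1.08 (0.63 to 1.53) in astrocyte-like barcodes. *Vim* had -1.02 in pericytes, 0.15 (0.13 to 0.18) in endothelial-like and 1.86 (1.76 to 1.96) in astrocyte-like barcodes. In astrocyte-like barcodes the same held for *Pde1a* (2.81, 1.62 to 4.23), *Mnd1* (1.62, 0.53 to 2.79), *Emid1* (1.08, 0.76 to 1.40), *Nt5dc2* (0.88, 0.56 to 1.19), *Col4a2* (0.66, 0.28 to 1.04) and *Adcyap1r1* (0.35, 0.24 to 0.46). *Pde1a* and *Mnd1* had only 42 and 35 UMIs there. *Epb41l1* had only 41 UMIs in endothelial-like barcodes (0.644 and 1.69 CPM) and was at 1.40 and 3.39 CPM in microglia-like barcodes. Ratios of the opposite sign with an interval without 0, but with libraries that overlapped, were also found for *Rhod* (-0.28) and *Col18a1* (0.34) in endothelial-like barcodes, for *Loxl2* in microglia-like (0.60) and astrocyte-like (1.38) barcodes, and for *Col4a1* (0.86), *Col4a2* (0.71), *Nnat* (-1.02) and *Slc1a2* (0.95) in fibroblast-like barcodes. The difference between the classes was not tested.

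Genes named in only 1 of both gene lists were outside the comparison, and 6 of them were above 100 CPM in the pericytes of their preparation. In the cortex these were *Cebpd*, a transcription factor (474 CPM, with 491, 438 and 517 CPM by library), *AC160336.1* (219 CPM, with 469, 145 and 63.8 CPM), *Vps28*, a sorting protein of endosomes (147 CPM), and *Gm14005* (116 CPM, with 3.23 CPM in microglia-like barcodes). In the hippocampus they were *Ifi30*, a lysosomal thiol reductase (124 CPM, with 120, 128 and 125 CPM), and *Gm21092* (120 CPM). No level can be given for them in the other preparation.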

How the results depend on the processing

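No paired analysis was possible because the replicate numbers mark runs of 1 suspension per preparation and the results come from no test. The hippocampus share of pericytes was above the cortex share under every limit tried on the cells. The cortex share (1.13%) became 1.43% with at least 3 pericyte genes, 0.713% with no endothelial gene, 2.94% with no limit on endothelial genes, 1.63% with no limit on contractile genes and 3.72% over all barcodes with at least 4 pericyte genes. The hippocampus share (2.73%) became 1.86% with no endothelial gene, 4.35% with no limit on endothelial genes, 2.36% with no contractile gene, 2.11% without cells holding microglial or astrocyte markers, 2.06% without cells holding any other cells' markers and 4.99% over all barcodes with at least 4 pericyte genes. Leaving out 1 library in turn gave 0.973 to 1.22% and 2.60 to 2.90%.

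The number of genes called higher in the hippocampus (295) became 466 with no limit on endothelial genes, 88 on cells thinned to 1000 UMIs, 98 with at least 100 UMIs, 474 at a 1.5-fold limit and 90 at a 4-fold limit. That of genes higher in the cortex (169) became 266 with at least 3 pericyte genes, 104 with no endothelial gene, 292 with no limit on contractile genes, 100 without cells holding microglial or astrocyte markers, 64 on thinned cells, 61 with at least 100 UMIs, 275 with no minimum of UMIs, 317 at a 1.5-fold limit and 45 at a 4-fold limit. Thinning and the 100-UMI limit left fewer genes to measure. Leaving out 1 library in turn gave 259 to 412 and 168 to 198 genes, the 412 without cortex replicate 2. Scaling by TMM gave 280 and 173 and by median-of-ratios size factors 253 and 187.

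Of 118 named genes with a finite ratio, 11 reversed under 1 of 16 settings. Without cells holding other cells' markers, a setting chosen after seeing the data, the log2 ratio became 0.93 for *S1pr1*, 0.69 for *Id2*, 1.05 for *Id4*, 1.41 for *Vegfa*, 1.42 for *Slc1a3*, 0.58 for *Clu*, -0.74 for *Stmn1*, 2.17 for *Gja1*, 0.052 for *Cldn10* and 1.47 for *Cspg5*. On thinned cells *Saa1* became -0.88. The remaining UMIs were few for most of these genes, and *Slc1a3*, *Gja1*, *Cldn10* and *Cspg5* are markers that chose the cells left out. The cause was not tested. Ratios that were infinite because a preparation had 0 UMIs were left out of this count. With 151 cortex pericytes, genes under about 30 UMIs could not be compared.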
